A study of Mus musculus with 71 samples.

Results

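The comparison of burn with excision in the mouse piriform cortex rested on 9 of the 71 bulk RNA sequencing libraries of the series, 5 from burned and 4 from excised animals. The libraries were chosen as the columns of the count table that carry the piriform library code, and each was assigned to burn or excision by its labelled treatment, not its title. A further 5 piriform libraries came from sham animals and were used as a reference and to estimate the spread. All were made from bulk brain tissue, labelled piriform cortex, of C57BL/6J mice. Burned mice received a full-thickness contact burn on the right flank from a brass rod 19 mm across, heated above 90 °C and held on for 10 s, covering 7 to 8% of the body surface. Excised mice lost a full-thickness disc of mid-back skin cut with a 12 mm template, and per the labels' protocol this wound later widened to the burn's size. Sham mice were shaved on the back and not wounded. All 3 groups were anaesthetised with isoflurane and given buprenorphine at 0.1 mg/kg and paracetamol in the drinking water at 1 mg/mL for 5 days. Burn and excision therefore differed in the site of the wound as well as in its kind, and these cannot be told apart. The labels used here state neither age, sex nor the time from injury to collection.

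The piriform cortex is the largest target of the olfactory bulb and turns odour input into distributed patterns of activity. Adrenal glucocorticoids, released under stress and after injury, enter brain cells, bind the glucocorticoid receptor and switch on genes such as Fkbp5 and Tsc22d3. Immediate early genes, which include Fos and other transcription factor genes, are switched on within minutes when neurons fire strongly, and their RNA decays quickly.

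Total counts ran from 46.8 to 76.4 M per library, and no pair of libraries within a group was identical. All 14 libraries are titled as frontal cortex but labelled piriform in tissue and source, and the tissue label was followed. Summed over 15 markers of piriform cortex neurons, the level was 6133 to 7441 CPM (read counts scaled by library size) in these libraries, with a median of 6998, against 4042 to 7307 CPM and a median of 5922 in the 28 frontal cortex libraries. These ranges overlap, so the sum did not tell the 2 regions apart. Most of it came from Camk2a and Slc17a7, the genes of a kinase and a glutamate transporter of excitatory neurons, with medians of 4060 and 1596 CPM. In the frontal cortex these medians were 2982 and 1642 CPM. The less abundant markers were split. Slc17a6 had medians of 24.5 CPM here and 11.5 CPM in the frontal cortex, and Fezf2 19.1 and 33.5 CPM. Medians were also higher here for Tbr1, Nptx1, Cux1, Calb1, Lhx2 and Neurod2. They were lower here for Reln (44.9 against 61.8 CPM), Etv1 (39.2 against 67.9 CPM), Ntng1, Lmo3 and Bcl11b. The ranges of all these genes overlapped. The title of sham replicate 2 names excision, and it was kept as sham. Library numbers ran in blocks of excision, sham and burn, so the order of the libraries and the treatment cannot be told apart. In a principal component analysis sham replicates 1 and 5 lay farthest from the rest.

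No gene passed the test between burn and excision. The edgeR quasi-likelihood test called 0 of 21004 genes (0%) at a Benjamini-Hochberg adjusted p under 0.05, and 1658 genes (7.89%) had an unadjusted p under 0.05, 952 of them higher (4.53%) and 706 lower (3.36%) in burn. The DESeq2 Wald test on the same counts called 63 of 19352 genes (0.326%), 32 higher (0.165%) and 31 lower (0.16%). Every burn library lay above every excision library for 410 genes (1.95%), and below for 324 (1.54%), in all 734 genes (3.49%). The median log2 fold change over all genes was 0.02, with 11292 genes higher and 9712 lower in burn. Leaving out sham replicate 5 gave 3 calls by edgeR (Nr4a3, Ky and Plin4) and leaving out burn replicate 1 gave 1 (Plin4). The count at an unadjusted p under 0.05 was 932 without excision replicate 1, 1039 without excision replicate 4, 1074 without burn replicate 3, 1103 without burn replicate 4 and 2622 without excision replicate 3. Fitting the 9 burn and excision libraries without the sham group called 29 genes. The labels do not say that the libraries came from separate animals, so the p-values measure the spread between these samples only.

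Against sham, neither injury gave a call. Burn against sham gave 0 genes (0%) by edgeR, with 896 (4.27%) at an unadjusted p under 0.05, of which 435 (2.07%) were higher and 461 (2.19%) lower in burn, and excision against sham gave 0 (0%), with 1102 (5.25%), of which 469 (2.23%) were higher and 633 (3.01%) lower in excision. DESeq2 was not run on these contrasts. These comparisons share libraries with each other and with burn against excision, so their values are given side by side below and are not independent.

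A plot of all 42 gene lists shows the pair with the largest share of members at an unadjusted p under 0.05, the glucocorticoid-induced and the immediate early genes. Both were singled out after their values were seen.

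**Figure D1:**
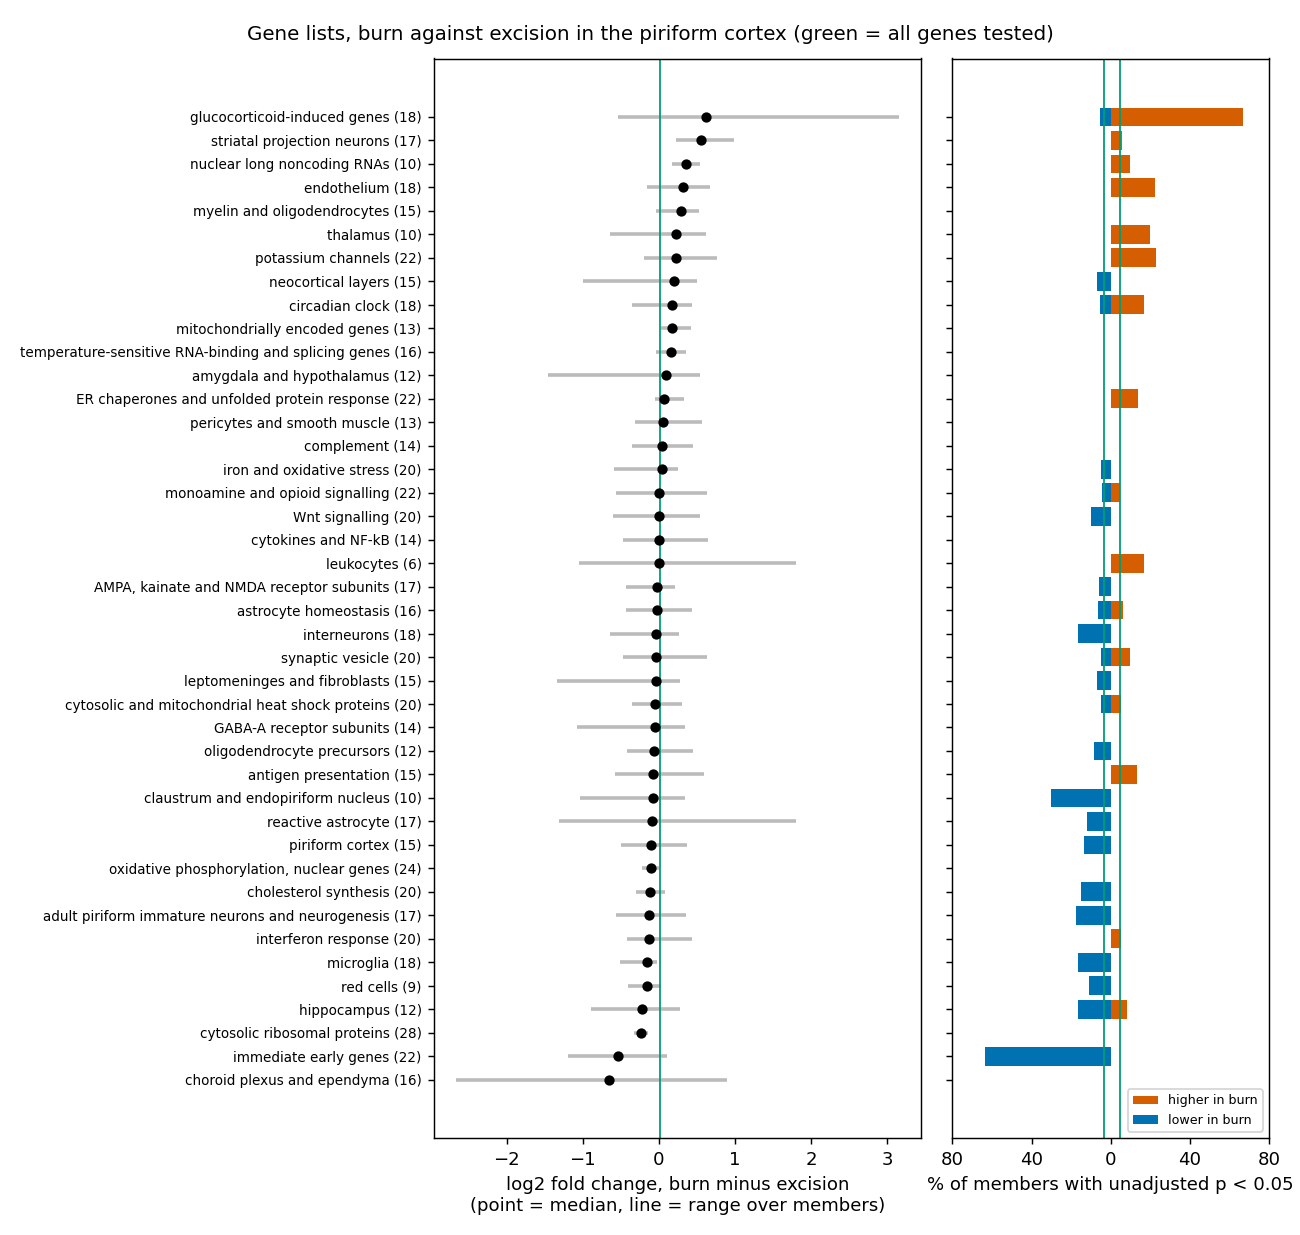
Median (point) and range (line) of the log2 fold change, burn minus excision, over the tested members of each of 42 gene lists, with the number tested in parentheses, and on the right the percentage of members at an unadjusted p under 0.05 in each direction. Green lines mark all genes tested; the glucocorticoid-induced list has the highest median (0.63) and the immediate early list the largest share of members lower at an unadjusted p under 0.05 (14 of 22).

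The sequences upstream of 4 genes are shown because these genes carry the differences described below: 2 of the glucocorticoid-induced list and 2 immediate early genes. Each is 300 bases from 250 before to 50 after the annotated start, 5′ to 3′ on the gene's strand (RefSeq, GRCm38.p6). Capitals mark any of 7 motifs searched on both strands: the cAMP response element (CRE) TGACGTCA and its core TGACG, the E-box CACGTG, the D-box TTATGTAA, the unfolded protein response element TGACGTGG, the glucocorticoid response core TGTTCT and the serum response core. The 3 cores were added after the files had been examined, and the CRE core last, once the other motifs had matched few genes or none.
Plin4 (chr17:56109733-56110032, minus strand): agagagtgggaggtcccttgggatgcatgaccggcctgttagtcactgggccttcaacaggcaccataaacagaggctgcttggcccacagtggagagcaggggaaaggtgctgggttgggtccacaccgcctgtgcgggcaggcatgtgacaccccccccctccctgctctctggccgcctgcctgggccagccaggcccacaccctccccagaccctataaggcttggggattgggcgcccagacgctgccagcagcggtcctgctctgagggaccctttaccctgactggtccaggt
Fkbp5 (chr17:28486100-28486399, minus strand): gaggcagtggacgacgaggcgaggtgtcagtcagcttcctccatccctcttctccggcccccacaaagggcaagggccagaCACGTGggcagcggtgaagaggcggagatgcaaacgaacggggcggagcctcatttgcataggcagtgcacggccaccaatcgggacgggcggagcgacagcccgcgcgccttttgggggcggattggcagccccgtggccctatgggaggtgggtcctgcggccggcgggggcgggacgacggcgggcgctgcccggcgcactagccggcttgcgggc
Fos (chr12:85473640-85473939, plus strand): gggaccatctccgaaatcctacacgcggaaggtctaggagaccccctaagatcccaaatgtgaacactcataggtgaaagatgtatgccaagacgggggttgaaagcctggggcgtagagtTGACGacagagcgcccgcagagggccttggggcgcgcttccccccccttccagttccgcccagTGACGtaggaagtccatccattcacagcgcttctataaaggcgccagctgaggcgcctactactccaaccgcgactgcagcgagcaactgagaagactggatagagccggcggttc
Btg2 (chr1:134079106-134079405, minus strand): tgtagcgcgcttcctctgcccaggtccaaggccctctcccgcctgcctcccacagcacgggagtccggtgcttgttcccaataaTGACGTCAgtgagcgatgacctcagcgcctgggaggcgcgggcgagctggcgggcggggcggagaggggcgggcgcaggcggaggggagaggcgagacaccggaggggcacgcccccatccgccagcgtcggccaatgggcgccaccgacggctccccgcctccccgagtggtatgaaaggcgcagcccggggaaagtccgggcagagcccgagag

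With the first transcribed base counted as 0, Fkbp5 held an E-box at -169, Fos CRE cores at -129 and -66, and Btg2 a CRE at -166, which contains 2 overlapping CRE cores, at -166 and -163. The Plin4 window held none of the 7. Promoters were found for 17 of 18 glucocorticoid-induced and 18 of 22 immediate early genes. The glucocorticoid response core was in 11.8% of the former (Sgk1 and Sult1a1), 5.56% of the latter and 13.0% of the 13354 tested genes with a promoter. The CRE core was in 17.6%, 55.6% and 28.8%, the CRE in 5.88%, 5.56% and 2.91%, and the E-box in 11.8%, 16.7% and 9.44%. The D-box, the unfolded protein response element and the serum response core were in none of either list, and in 0.674%, 0.794% and 0.03% of tested genes. Because the CRE core was searched after the other motifs, its share is a description only.

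Genes induced by glucocorticoids had higher levels in burn than in excision libraries. Of 18 members, all tested, 16 were higher and 2 lower in burn, with a median log2 fold change of 0.63. An unadjusted p under 0.05 was reached by 12 members in the higher direction and by 1 in the lower, beside backgrounds of 4.53% and 3.36%. In 8 members every burn library exceeded every excision library, beside 1.95% of all genes. By edgeR 0 members were called; DESeq2 called 6 (Plin4, Tsc22d3, Zbtb16, Hif3a, Map3k6 and Klf9), beside 0.326% of all genes. The list's median was 0.20 for burn minus sham and -0.26 for excision minus sham. With any one library left out, 10 to 12 members were higher at an unadjusted p under 0.05.

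Plin4, which encodes a perilipin of the lipid droplet surface, had the smallest p of all genes. It measured 9.12, 26.7, 25.2, 23 and 29.2 CPM in burn libraries 1 to 5, and 0.794, 2.26, 3.25 and 3.87 CPM in excision libraries 1 to 4. The sham libraries held 9.42, 2.68, 4.48, 7.04 and 13.5 CPM. Burn replicate 1 was the lowest of its group and still above every excision library, while the sham libraries spread over the gap between the groups. The log2 fold change was 3.16 ± 0.49 (SE), a ratio of means of 8.90, with an edgeR adjusted p of 0.155 and a DESeq2 adjusted p of 3.3e-05. Against sham, burn was at 1.62 and excision at -1.54 on the log2 scale, both with an edgeR adjusted p above the threshold (0.884 and 0.915). Plin4 is on chromosome 17 (GRCm38, 56100591 to 56109803, minus strand).

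Tsc22d3, which encodes the leucine zipper protein GILZ, also separated the groups. Its burn libraries ran at 113, 98.5, 114, 111 and 119 CPM and its excision libraries at 55.2, 66.0, 60.9 and 79.1 CPM. The groups did not overlap, and the sham values, from 70.8 CPM in replicate 2 to 125.6 CPM in replicate 1, overlapped both. The log2 fold change was 0.77 ± 0.14 (SE, edgeR adjusted p = 0.294).

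Fkbp5, which encodes a co-chaperone that dampens the glucocorticoid receptor, followed the same order. Burn libraries held 45.4, 41.9, 55.8, 37.0 and 57.2 CPM and excision libraries 30.3, 25.1, 26.5 and 31.7 CPM. The lowest burn library was above the highest excision library, and the sham libraries, from 24.6 to 57.0 CPM, overlapped both. The log2 fold change of 0.74 ± 0.20 (SE) had an edgeR adjusted p of 0.417 and a DESeq2 adjusted p of 0.0655.

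Transcription factors of the list lay in the same direction. Zbtb16 (PLZF) was measured at 23.9 to 45.3 CPM in the burn libraries and 12.1 to 18.6 CPM in the excision libraries, a log2 fold change of 1.09. Hif3a, a hypoxia-inducible factor subunit, was at 9.09 to 16.5 CPM against 2.31 to 8.38 CPM, a log2 fold change of 1.33. Neither overlapped between the groups, and both had an edgeR adjusted p of 0.375. Klf9, a Krüppel-like factor, was measured at 195 to 299.9 CPM in the burn libraries and 152 to 202 CPM in the excision libraries, so that burn replicate 2 lay within the excision range.

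Kinase and arrestin-domain genes made up the other members without overlap. Sgk1, a serum- and glucocorticoid-regulated kinase, measured 83.5 to 109 CPM in burn and 34.4 to 81.1 CPM in excision, with a log2 fold change of 0.68 (edgeR adjusted p = 0.596). Map3k6, a MAP kinase kinase kinase, had 5.11 to 7.64 CPM against 3.31 to 4.54 CPM, and Arrdc2, an arrestin-domain gene, 16.8 to 23.2 CPM against 9.17 to 11.7 CPM. The 3 genes did not overlap between burn and excision. Of the remaining members, the metallothionein gene Mt1 gave a log2 fold change of 0.01 and the stress gene Ddit4 0.13, with overlapping groups. Dusp1, a phosphatase gene that activity also induces, was lower in burn at -0.53 (edgeR unadjusted p = 0.0126), and Pdk4, a pyruvate dehydrogenase kinase gene, stood at -0.18.

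**Figure D2:**
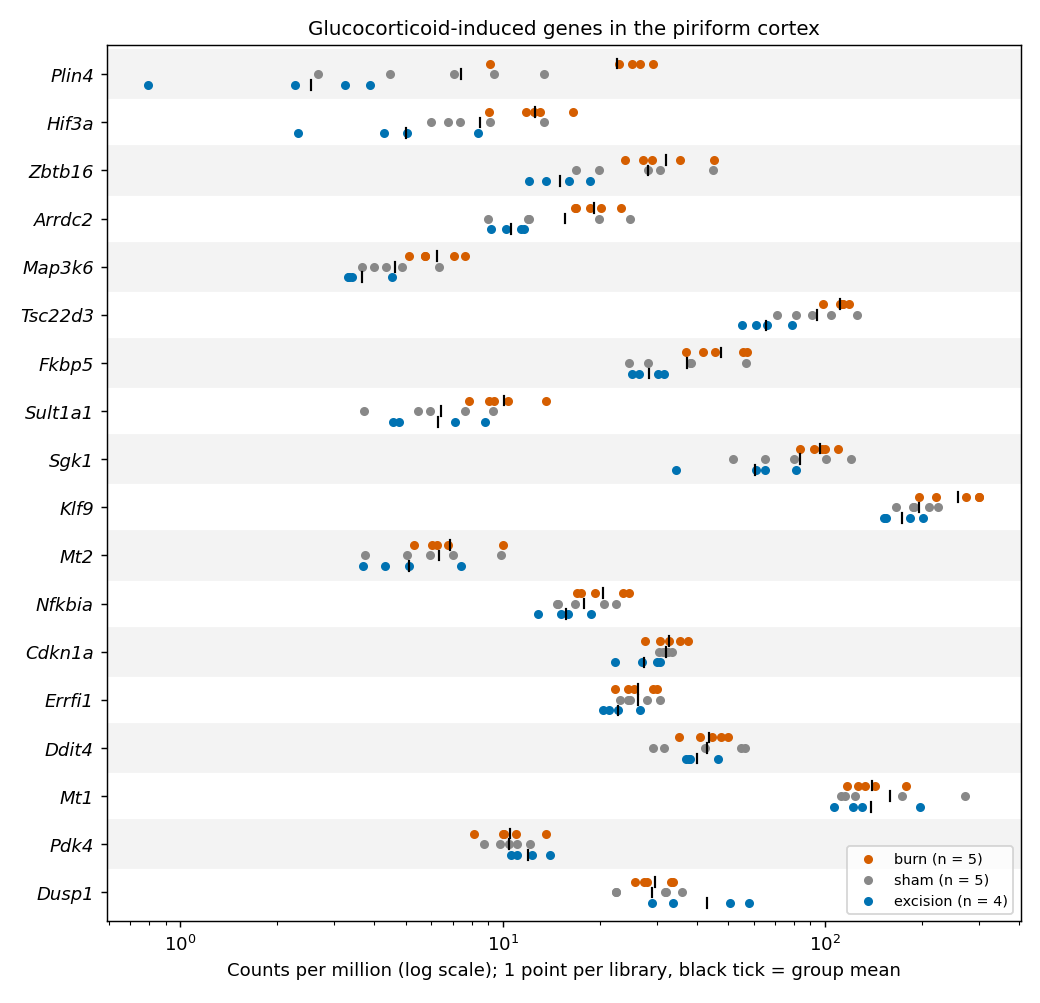
Level of each of the 18 glucocorticoid-induced genes in CPM (log axis) in the 5 burn, 5 sham and 4 excision libraries, with 1 point per library and a black tick at the group mean, ordered by the fitted log2 fold change. Plin4 shows the widest gap between burn and excision, and its 5 burn points lie between 9.12 and 29.2 CPM.

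Immediate early genes had lower levels in burn than in excision libraries. Of 22 members, all tested, 19 were lower and 3 higher (Egr3, Ier5 and Homer1), with a median log2 fold change of -0.54. An unadjusted p under 0.05 was reached by 14, all of them lower, beside a background of 3.36%. Every burn library lay below every excision library for 6 members (Fos, Fosl2, Jun, Nr4a3, Npas4 and Gadd45b), beside 1.54% of all genes. By edgeR 0 members were called, and by DESeq2 2 (Btg2 and Jun), beside 0.326% of all genes. The list's median was -0.17 for burn minus sham and 0.35 for excision minus sham. With 2 surrogate variables in the fit, 7 members in place of 14 had an unadjusted p under 0.05.

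Fos, the best known activity marker, was at 22.9, 20.4, 16, 22.3 and 18.8 CPM in burn libraries 1 to 5. The excision libraries held 66.2, 47.6, 29.6 and 26.1 CPM, and the sham libraries 19.9, 29.4, 26.8, 29.8 and 10.3 CPM. Excision replicates 1 and 2 were the highest of all 14, and sham overlapped burn and excision. The log2 fold change was -1.08 ± 0.28 (SE), with an edgeR adjusted p of 0.394.

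Nr4a3, a nuclear receptor gene, separated more evenly, with 14.1 to 22.2 CPM in burn and 39.2 to 42.5 CPM in excision. Its sham libraries spread from 8.17 CPM in replicate 5 to 39.4 CPM in replicate 1. The log2 fold change was -1.11 ± 0.29 (SE), with an edgeR adjusted p of 0.394 and a DESeq2 adjusted p of 0.153. Without sham replicate 5, which enters only the estimate of the spread, edgeR gave -1.12 with an adjusted p of 0.0084.

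Other transcription factor genes lay in the same direction. Jun, a partner of Fos, was measured at 27.4 to 36.4 CPM in the burn libraries and 36.8 to 62.2 CPM in the excision libraries, and the neuronal factor Npas4 at 15.5 to 21.8 CPM against 22.8 to 46.4 CPM. Junb had 47.3 to 95.5 CPM against 77.0 to 195 CPM and Egr2 5.43 to 11.7 CPM against 8.71 to 24.6 CPM, both with overlap. In Fosb, Egr2 and Egr4 burn replicate 1 was the highest burn library.

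Btg2, an antiproliferative gene, gave the largest difference of the list. Burn libraries measured 11.4, 11.4, 9.70, 9.69 and 9.27 CPM and excision libraries 41.5, 26.0, 11.1 and 15.8 CPM. Excision replicate 3 lay within the burn range, while replicates 1 and 2 were the highest of all 14 libraries. The log2 fold change of -1.2 ± 0.29 (SE) became -0.78 without excision replicate 1. Arc and Egr1, which encode a synaptic regulator and a zinc finger factor, stood at -0.31 and -0.16 with overlapping groups, and at -0.11 and -0.0310 without excision replicate 1. Excision replicate 4 left out gave -0.49 and -0.33. Bdnf, a neurotrophin gene, was at -0.23.

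**Figure D3:**
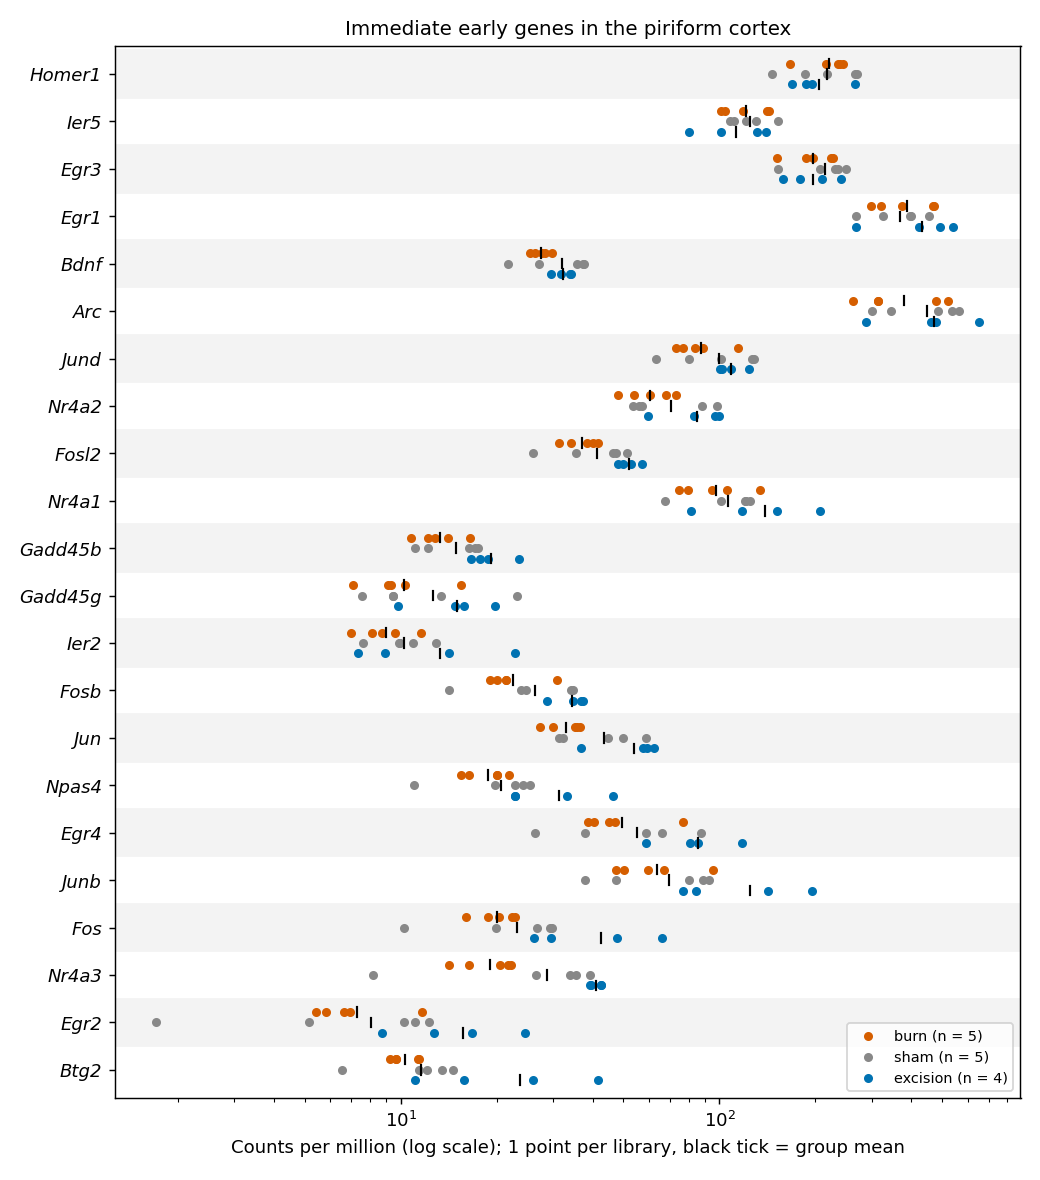
Level of each of the 22 immediate early genes in CPM (log axis) in the 5 burn, 5 sham and 4 excision libraries, with 1 point per library and a black tick at the group mean, ordered by the fitted log2 fold change. For Btg2 and Fos the 2 highest points are excision libraries, and for Nr4a3 the excision points (39.2 to 42.5 CPM) lie clear of the burn points (14.1 to 22.2 CPM).

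Set beside each other per library, the mean log2 CPM of the glucocorticoid-induced list was 4.78 to 5.06 in burn and 4.07 to 4.33 in excision, without overlap. Sham libraries ran from 4.19 to 4.87. The immediate early list was at 5.22 to 5.70 in burn and 5.58 to 6.27 in excision, where burn replicate 1 exceeded excision replicate 4, and at 4.95 to 5.79 in sham. Both lists were singled out after their values in these libraries were seen, so the separation of the groups is a description only.

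**Figure D4:**
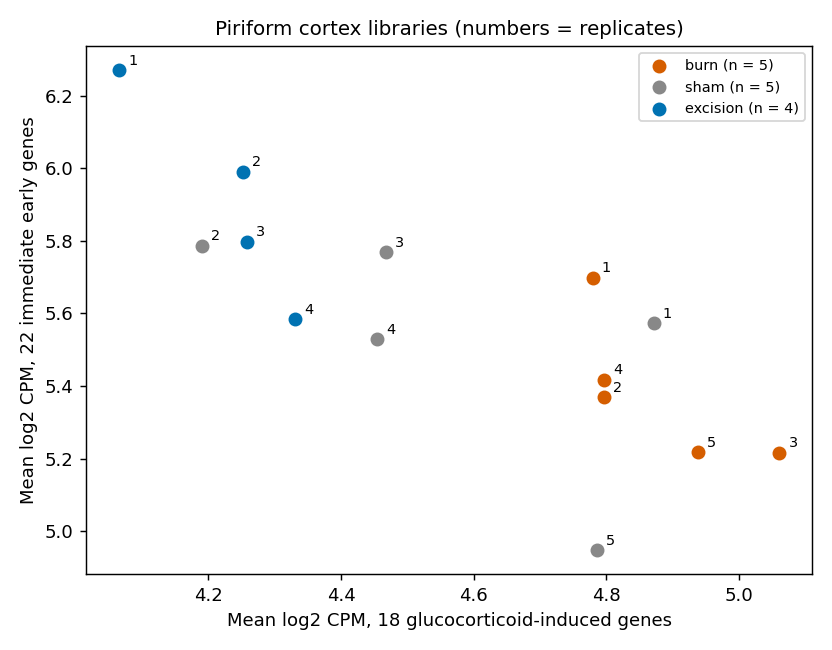
Mean log2 CPM of the 18 glucocorticoid-induced genes (x axis) and of the 22 immediate early genes (y axis) in each piriform library, with replicate numbers. Burn libraries lie at the right and excision libraries at the left, and sham libraries are spread across both. Both lists were chosen after their values in these libraries were seen.

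RNA quality and composition moved alongside. Summed nuclear long noncoding RNAs were at 5407 ± 1091 CPM (SD, n = 5) in burn and 3949 ± 1095 CPM (n = 4) in excision, and cytosolic ribosomal proteins at 4880 ± 684 and 5729 ± 709 CPM, with exact permutation p = 0.0873 and 0.103. In the gene fits all 10 noncoding RNAs were higher and all 28 ribosomal protein genes lower in burn. Leukocyte genes summed to 50.9 CPM in burn and 36.2 CPM in excision (two-sided exact permutation p = 0.0317), hippocampus markers to 359 and 414 CPM (exact p = 0.0476) and thalamus markers to 120 and 108 CPM (exact p = 0.0397). Only 6 of the 17 leukocyte genes passed the count filter, and 3 were higher and 3 lower in burn (median -0.00264). Hippocampus markers were lower in 10 of 12 and thalamus markers higher in 8 of 10. None of the 13 such measures had an adjusted p under 0.05 (lowest 0.206), and the smallest unadjusted p that 5 against 4 libraries allow is 0.00794. The part of these measures in the results above was not tested.

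Beyond the 2 lists, the genes with the smallest p included several with known roles. Genes picked for a small p tend to separate the groups, so their lack of overlap is a description only. Over all genes the share without overlap was 3.49%. Mfsd2a, a lipid transporter of brain endothelium, was measured at 27.9 to 37.8 CPM in the burn libraries and 16.4 to 24.2 CPM in the excision libraries, and Inhba, an activin subunit gene, at 8.76 to 13.8 CPM against 4.80 to 8.51 CPM. Ky, the kyphoscoliosis peptidase gene, was at 5.12 to 10.0 CPM against 2.25 to 3.12 CPM. Col6a4, a collagen gene, had 1.78 to 7.54 CPM against 0.570 to 1.63 CPM. None of these overlapped between burn and excision, and all had an edgeR adjusted p of 0.294 or 0.34.

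Among the genes with lower levels in burn, Ak4, a mitochondrial adenylate kinase gene, had 33.7 to 44.5 CPM in burn and 48.7 to 57.7 CPM in excision (log2 fold change -0.45). Phf13, a chromatin reader gene, had 11 to 13.7 CPM against 15.8 to 19.2 CPM (-0.55), and Gpr19, an orphan receptor gene, 9.49 to 10.7 CPM against 13.3 to 14.5 CPM (-0.48). Dpysl3, a growth cone gene, had 21.5 to 26.0 CPM against 29.0 to 36.8 CPM (-0.48). The 4 genes, also picked for their small p, did not overlap (3.49% of all genes did not), and each had an edgeR adjusted p of 0.294. Blcap (-0.38), Tnfaip8 (-0.59) and 2810459M11Rik (-0.76) were likewise lower without overlap. Among the genes with higher levels, Smim3 (0.99), Gm19439 (1.29) and Gm34583 (1.03) did not overlap, and Tekt4 (1.56), an axonemal tektin gene near 1 CPM, did.

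In the glial, vascular and immune lists no member was called by edgeR or DESeq2. The DESeq2 calls in none of these lists included Mfsd2a (adjusted p = 0.00972), Nrros (0.57, adjusted p = 0.0335) and Hapln2 (0.82, adjusted p = 0.0477), all higher in burn. All 18 microglia genes were lower in burn, with a median of -0.15, and 3 had an unadjusted p under 0.05, beside 3.36% of all genes. Aif1, the microglial gene for IBA1, was measured at 3.85 to 5.59 CPM in the burn libraries and 5.09 to 7.15 CPM in the excision libraries (log2 fold change -0.51, edgeR adjusted p = 0.563). In bulk tissue, fewer cells of a type and less RNA per cell cannot be told apart. The reactive astrocyte gene Gfap (-0.31) and the complement gene C4b (-0.29) overlapped between groups. Gfap was at -0.17 without burn replicate 4 and -0.55 without excision replicate 3, and C4b at -0.00688 without excision replicate 1 and -0.45 without burn replicate 2. Endothelial genes were higher in 14 of 18 members with 4 at an unadjusted p under 0.05, beside 4.53% of all genes, among them the glucose transporter gene Slc2a1 (0.47), while the tight junction gene Cldn5 was at -0.00 and myelin's Mbp at 0.30. Hbb-bs, a haemoglobin gene, stood at -0.30, and Ttr, made by the choroid plexus, at -2.66 with values from 0.546 to 43.3 CPM across both groups.

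Of 10 genes of the claustrum and endopiriform nucleus, which adjoin the piriform cortex, 3 were lower at an unadjusted p under 0.05 (Nr2f2, Lxn and Nr4a2), beside 3.36% of all genes. In 2 of the 10 every burn library lay below every excision library, beside 1.54% of all genes. This share of 30% at that p was the largest after the glucocorticoid-induced and immediate early lists, but Nr4a2 is also in the immediate early list. The next were hippocampus markers (25%) and potassium channels (22.7%), beside 7.89% of all genes. Hippocampus markers had 2 of 12 lower and 1 higher at that p, and thalamus markers 2 of 10 higher, beside 3.36% of all genes lower and 4.53% higher. All 17 striatal genes were higher in burn with a median of 0.56, but 1 had an unadjusted p under 0.05, beside 4.53% of all genes. The median was 0.25 without burn replicate 1 and 0.93 without excision replicate 3. Their summed level was 905 to 2855 CPM in burn, 678 to 1874 CPM in excision and 600 to 3498 CPM in sham. Potassium channel genes were higher in 17 of 22 members, 5 of them at an unadjusted p under 0.05 beside 4.53% of all genes, led by Kcna1 (0.76). Of 15 piriform cortex markers, Lhx2 (-0.42) and Reln (-0.50) were lower at an unadjusted p under 0.05, beside 3.36% of all genes. Among endoplasmic reticulum chaperones and unfolded protein response genes, 17 of 22 were higher with a median of 0.07. Of the 22, 3 were higher at an unadjusted p under 0.05. The chaperone gene Hspa5 stood at 0.08 and Creld2 at 0.22. Clock genes were higher in 14 of 18, with Dbp at 0.14, and 3 were higher and 1 lower at that p. Cholesterol synthesis genes were lower in 19 of 20 with a median of -0.12, 3 of them at that p. Over all genes, 11292 of 21004 were higher and 9712 lower, 4.53% higher and 3.36% lower at that p.

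The difference of burn against excision in the piriform libraries was then tested against the 10 burn and 10 excision libraries of each other region, in 1 fit over all 71 libraries. All piriform libraries are labelled batch 3 and all frontal cortex and hippocampus libraries batch 1 or 2, so region and batch cannot be told apart in this test. The titles of 3 of the frontal cortex libraries disagree with their treatment labels, which were followed. Without these and sham replicate 2 the tests gave 33 and 113 genes. The difference of burn against excision departed from that of the frontal cortex for 40 of 23526 genes (0.17%), 23 higher and 17 lower in the piriform cortex, and from that of the hippocampus for 95 (0.404%), 43 higher and 52 lower. Both tests use the same piriform libraries. RNA composition moved with the region difference as well. The log2 difference of burn against excision was higher in the piriform cortex than in each other region for 10 of 10 nuclear long noncoding RNAs, with median excesses of 0.85 and 0.80, and for 1 and 0 of 28 ribosomal protein genes. It was higher than in the frontal cortex for 17 of 17 striatal genes, with a median of 1.11. The glucocorticoid-induced list had medians of 0.46 and 0.66, and the part of RNA composition in the calls was not tested. The counts moved with single piriform libraries. Against the frontal cortex the test gave 7 genes without excision replicate 2, 23 without burn replicate 1 or excision replicate 1, 25 without excision replicate 4 and 150 without excision replicate 3. Against the hippocampus it gave 30 without burn replicate 3 or excision replicate 1, 33 without excision replicate 4, 50 without burn replicate 4, 63 without excision replicate 2, 179 without burn replicate 2 and 397 without excision replicate 3.

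Glucocorticoid-induced genes were called in these tests: 3 of 18 against the frontal cortex and 5 of 18 against the hippocampus, all higher in the piriform cortex, beside 0.17% and 0.404% of all genes. The list was singled out after its values in these piriform libraries were seen. Their difference enters both tests, so these shares are a description only. The excess of Fkbp5 was 0.98 ± 0.18 (SE, edgeR adjusted p = 0.00693) over the frontal cortex and 0.87 ± 0.18 (adjusted p = 0.0139) over the hippocampus, and it stayed under 0.05 without any one piriform burn or excision library (highest 0.0421 and 0.0495). Fkbp5 averaged 34.2 ± 4.45 CPM (SD, n = 10) in the burn libraries of the frontal cortex and 40.6 ± 7.65 CPM in its excision libraries, and 62.1 ± 9.09 and 68.2 ± 8.63 CPM in those of the hippocampus. Tsc22d3 differed by 1.10 and 1.01, with edgeR adjusted p of 0.0097 and 0.017, and Plin4 by 3.01 and 3.05, with 0.0155 and 0.0136. Without excision replicate 1 the adjusted p of Plin4 was 0.114 and 0.0804 and that of Tsc22d3 0.055 and 0.0804, and without excision replicate 2 those against the frontal cortex were 0.0732 and 0.0548. Against the hippocampus Zbtb16 (1.52) and Hif3a (1.70) were called as well, and each lost the call without burn replicates 3 or 4 or excision replicates 1 or 2, Zbtb16 also without excision replicate 4 (highest adjusted p 0.106 and 0.16).

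**Figure D5:**
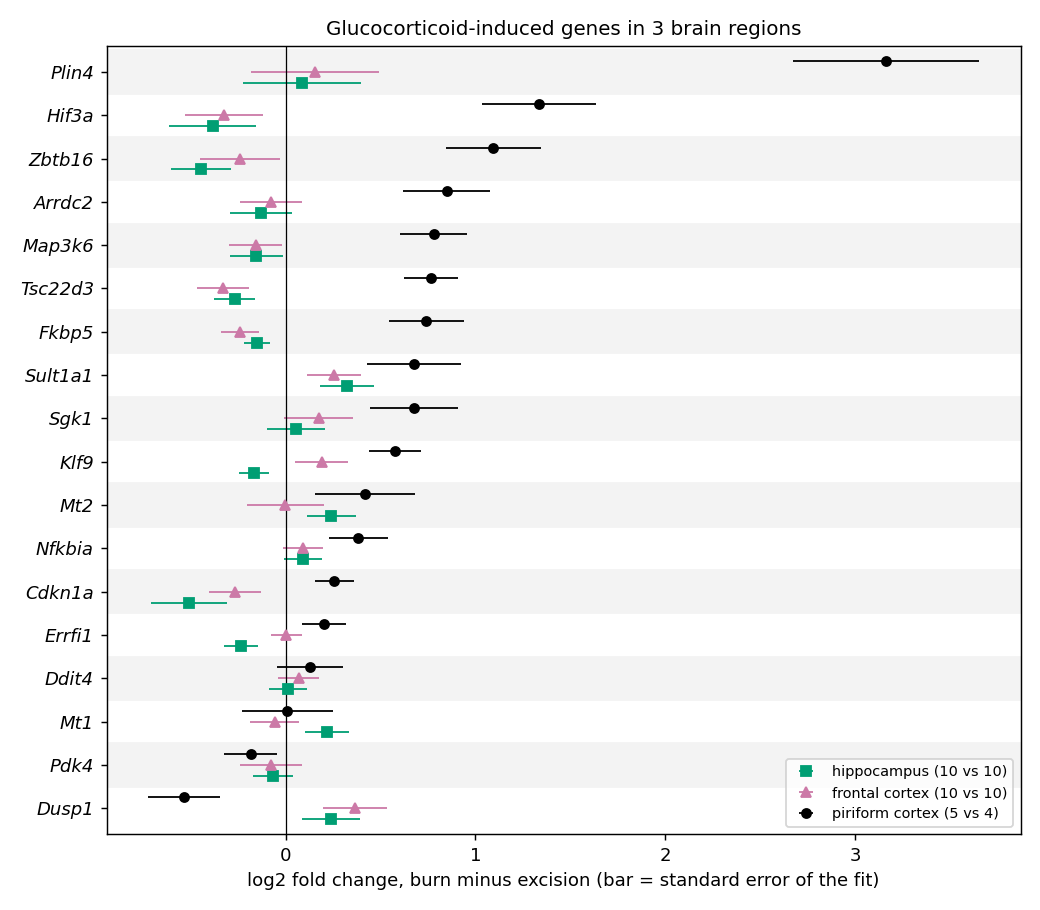
Log2 fold change, burn minus excision, of the 18 glucocorticoid-induced genes in each region's own fit (bars are standard errors), for the piriform cortex (5 against 4 libraries), frontal cortex and hippocampus (10 against 10 each). The piriform value exceeded the frontal one in 16 of 18 genes and the hippocampal one in 15, by 3.01 and 3.05 for Plin4. The list was chosen after its piriform values were seen.

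For some other called genes, but not most of the leading ones, the other region's own test also gave a call. The frontal cortex had 44 of 21077 genes (0.209%) called between burn and excision and the hippocampus 41 of 19574 (0.209%). Creld2, a chaperone gene of the endoplasmic reticulum, fell by 0.56 in the frontal cortex (edgeR adjusted p = 0.00079) and by 0.45 in the hippocampus (adjusted p = 0.00702), and stood at 0.22 in the piriform cortex. The difference was 0.78 and 0.65, both called (adjusted p = 0.00946 and 0.0307). The first lost the call without excision replicate 2 (0.07) and the second without burn replicate 1 or excision replicates 2 or 4 (highest 0.12). Sh2d3c, an adaptor gene, rose by 0.49 in the frontal cortex (adjusted p = 0.00377) and had the smallest p against it (-0.88, adjusted p = 0.00184).

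Phf13 gave the smallest p against the hippocampus (-0.83 ± 0.13, SE, edgeR adjusted p = 0.000224), where it rose by 0.26 (adjusted p = 0.0405). Fam181a (-1.86), the chromatin reader Zmynd8 (0.67), the ubiquitin ligase Trim17 (0.79) and Ky (1.58) and Smim3 (1.19) followed, each with an adjusted p of 0.00158. The hippocampus's own edgeR test called Fam181a (0.90, adjusted p = 0.0139) and Zmynd8 (-0.26, adjusted p = 0.0335), but not Trim17, Ky or Smim3. Ky, Smim3 and Gm34583 were among the 5 leading genes against the frontal cortex, at 1.63, 1.2 and 1.37. The frontal cortex's own test called none of these. Of the immediate early genes only Btg2 was called, against the frontal cortex (-1.37, adjusted p = 0.043), and it lost the call without any of burn replicates 1, 3, 4 and 5 or excision replicates 1 and 2 (highest 0.32).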

How the data were processed

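The authors deposited one table of raw read counts, whole numbers for 55416 Ensembl identifiers in each library. GRCm38, STAR, fastp, FastQC 0.11.3 and DESeq2 1.24.0 are listed in the submitters' processing notes. The counting program and strand setting are not given in those notes or labels. GENCODE M21 gave symbols for 52135 identifiers, and the 3281 without one held 0.793% of piriform counts. With no strand setting stated, overlapping and near-identical genes may share reads.

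The 14 piriform libraries were fitted together with edgeR 4.0.16 under R 4.3.3 (TMM, filterByExpr, quasi-likelihood F test), and a gene was called at a p under 0.05 after Benjamini-Hochberg adjustment. Differences between regions were interaction terms over 71 libraries, with batch as a term within the frontal cortex and hippocampus, while the piriform libraries form a batch of their own. Library measures were compared by two-sided exact permutation tests. The 20 genes with the smallest p (mean of at least 1 CPM) are named because fewer than 20 were called, with 13 genes read whatever their value, the 5 leading genes of each region test, and list members chosen after their values were seen. The members and lists were chosen with earlier results of these data known. In 1 data set simulated for burn against excision, 50 genes each were changed by 0.5, 1, 1.5 and 2 on the log2 scale, among 20620 genes. In that order edgeR recovered 12, 29, 32 and 43 of them, and DESeq2 1.42.0 recovered 19, 33, 36 and 46. Over all sizes together the false calls were 6 for edgeR and 26 for DESeq2. Alternatives were DESeq2 and its size factors, no filter, 9 libraries, title treatment, a replicate block, sva 3.50.0, no mitochondrial genes and each library left out. Sham replicates 1 and 5 were also left out, a choice made after seeing the data. Of the promoter motifs, 4 were chosen at the outset and 3 (the CRE, glucocorticoid and serum response cores) after the files had been examined.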

Additional observations from a re-analysis of the deposited data

Results flagged for a closer look

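Single libraries stood apart in 16 of 234 groups checked, and chance flags about 1 in 20. In burn, replicate 5 was high for Gpr19 (10.7 CPM), replicate 1 for Fosb (30.9 CPM), Egr2 (11.7 CPM) and Egr4 (76.8 CPM), and replicate 2 for the mitochondrial share of counts (8.95%). In excision, replicate 2 was high for Map3k6 (4.54 CPM) and replicate 4 for Ddit4 (46.7 CPM). In sham, replicate 5 was high for Ky (11.5 CPM) and replicate 2 low for Tekt4 (0.598 CPM). Sham replicate 1 was high for Cldn5 (18.6 CPM), Ttr (186 CPM) and the summed choroid plexus (426 CPM), red cell (1763 CPM) and hippocampus (772 CPM) markers, and sham replicate 3 for striatal (3498 CPM) and amygdala and hypothalamus (308 CPM) markers.

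The difference of burn against excision departed from that of the frontal cortex, by the interaction test in edgeR, for Plin4 (3.01), Tsc22d3 (1.10), Smim3 (1.2), Phf13 (-0.65), Ky (1.63), Gm19439 (1.72), Gm34583 (1.37), 2810459M11Rik (-0.78), Fkbp5 (0.98), Creld2 (0.78), Btg2 (-1.37), Sh2d3c (-0.88), Zmynd8 (0.59) and Trim17 (0.67), on the log2 scale. Against the hippocampus it did so for Plin4 (3.05), Tsc22d3 (1.01), Smim3 (1.19), Phf13 (-0.83), Ky (1.58), Col6a4 (3.10), Gm19439 (1.71), Gm34583 (1.25), Blcap (-0.52), Hif3a (1.70), Zbtb16 (1.52), 2810459M11Rik (-0.82), Fkbp5 (0.87), Creld2 (0.65), Sh2d3c (-0.73), Fam181a (-1.86), Zmynd8 (0.67) and Trim17 (0.79). Both sets rest on the same 9 piriform libraries. Against the frontal cortex calls were lost without burn replicate 1 (Btg2), 3 (2810459M11Rik, Btg2), 4 (Btg2) or 5 (Btg2). They were also lost without excision replicate 1 (2810459M11Rik, Btg2, Gm19439, Plin4, Tsc22d3), 2 (Btg2, Creld2, Gm19439, Phf13, Plin4, Trim17, Tsc22d3, Zmynd8) or 4 (2810459M11Rik, Zmynd8), with a highest adjusted p of 0.32. Against the hippocampus they were lost without burn replicate 1 (Creld2), 3 (2810459M11Rik, Blcap, Col6a4, Hif3a, Zbtb16) or 4 (Hif3a, Zbtb16). They were also lost without excision replicate 1 (2810459M11Rik, Blcap, Col6a4, Gm19439, Hif3a, Plin4, Tsc22d3, Zbtb16), 2 (Col6a4, Creld2, Hif3a, Sh2d3c, Zbtb16) or 4 (2810459M11Rik, Blcap, Col6a4, Creld2, Zbtb16), with a highest adjusted p of 0.16.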

How the results depend on the processing

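The number of libraries per group limits the precision, at 46.8 to 76.4 M counts each. The 0 calls of the piriform test became 1 without a count filter, 63 with DESeq2, 29 with the 9 burn and excision libraries, 1 with treatment from titles and 12 without sham replicates 1 and 5, and 0 to 3 with each library left out. DESeq2 size factors, 2 surrogate variables, leaving out mitochondrial genes and leaving out sham replicate 2 gave 0. The 1658 genes at an unadjusted p under 0.05 became 2603 without a filter, 2645 with 9 libraries and 2524 without sham replicates 1 and 5, and 932 to 2622 with each library left out. Immediate early members lower at that p numbered 7 with 2 surrogate variables. In the region tests only piriform burn and excision libraries were left out singly. These runs gave 7 to 150 genes against the frontal cortex and 30 to 397 against the hippocampus. The hippocampus test gave 63 without a filter. The cause was not tested.

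Signs turned for some genes that were far from the threshold. With 2 surrogate variables Gfap was at 0.36 and C4b at 0.25, and Cldn5 was at 0.0611 with treatment from titles. Mt1 was at -0.00701 with DESeq2 size factors, -0.00813 without a filter, -0.00687 with DESeq2, -0.00688 with 9 libraries, -0.0378 with the replicate block and -0.00297 without mitochondrial genes. In the same order Egr3 was at -0.0142, -0.0149, -0.0142 and -0.0150, and it was at -0.0741 with titles and -0.0111 without mitochondrial genes. With each library left out, Cldn5 ran from -0.13 to 0.13, Hbb-bs from -0.53 to 0.0857, Mt1 from -0.10 to 0.22, Egr3 from -0.0896 to 0.11 and Ier5 from -0.0285 to 0.22. Summed choroid plexus markers differed by -9.88 to 6.80 CPM, red cell markers by -186 to 18.8 CPM and neocortical markers by -1.01 to 69.6 CPM.

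Same-numbered burn and excision libraries correlated at 0.246, -0.0651, 0.114 and -0.0473, and differently numbered ones at -0.159 to 0.192. So few values cannot decide whether same-numbered libraries were paired. With that number as a replicate block and sham replicate 2 left out, 1 gene (Plin4) was called. In that fit 2072 genes had an unadjusted p under 0.05 by edgeR, against 1552 from the same libraries without the block.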
